A study of Rattus norvegicus with 6 samples.

Results

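The proteasome genes of the rat were followed here through their transcripts. Members were the named genes of the deposited table whose symbols begin with Psma, Psmb, Psmc, Psmd, Psme, Psmf or Psmg and a digit, and 49 of 21553 named genes met that rule. They comprise 7 alpha and 7 constitutive beta subunits of the core, 6 ATPases and 11 non-ATPases of the 19S cap, and the 5 inducible genes Psmb8, Psmb9, Psmb10, Psme1 and Psme2. The other members are 3 further regulators, 7 assembly factors, the tissue-restricted core subunits Psma8 and Psmb11, and Psmc3ip. Psmc3ip met the naming rule but encodes a partner of an ATPase subunit that is known for meiotic recombination, and it is counted in no subunit group.

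RNA was sequenced from INS-1 cells, an insulin-secreting line from a rat insulinoma, in 6 libraries. In the 3 INS-SMA libraries the cells overexpressed alpha smooth muscle actin from a lentivirus, and the 3 INS-MOCK libraries are labelled wild type. The series calls the libraries of a group biological replicates without saying whether they came from separate cultures, so the p-values measure the spread between these libraries. The labels do not say whether INS-MOCK cells received a vector, which promoter drove the transgene, or whether the cells were clones or pools. All cells were grown in the same serum-containing medium, and the passage range given is the same for both groups.

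The proteasome is the protease that degrades ubiquitin-tagged proteins. Its barrel-shaped core has outer rings of alpha subunits, which gate entry, and inner rings of beta subunits, of which Psmb5, Psmb6 and Psmb7 encode the catalytic ones. The 19S cap recognises, unfolds and feeds in substrates. Interferons are known to induce the alternative catalytic subunits Psmb8, Psmb9 and Psmb10, which take the places of Psmb5, Psmb6 and Psmb7 in newly built immunoproteasomes, and the PA28 activator subunits Psme1 and Psme2. Immunoproteasomes are known for producing peptides for presentation by MHC class I, and immune cells carry them without a stimulus.

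The INS-SMA libraries held 24719503 to 39608609 counts and the INS-MOCK libraries 34471794 to 37466920. Rows of the table that carry no gene took 35.8% to 36.7% of the counts in INS-SMA and 32.7% to 33.0% in INS-MOCK, and a member's value lacks any reads counted there. The transgene, listed in the table as the separate sequence ACTA2, was at 51072 ± 6224 CPM in INS-SMA and at 5.78 ± 1.27 CPM in INS-MOCK (CPM, counts relative to TMM-scaled library size, mean ± SD, n = 3 each). The beta cell marker Ins1 was at 1306 to 1664 CPM in INS-SMA and at 21966 to 23701 CPM in INS-MOCK. Of 9 beta cell markers in the table, 7 were called lower by the test given below and none higher. That is 77.8% called lower, beside 27.0% of all tested genes, and 0% called higher, beside 28.1%. Slc2a2 and Iapp did not pass, and Iapp varied, at 1.68, 11.7 and 1.17 CPM in INS-SMA. The proteasome genes together took 0.531% to 0.561% of all counts with a gene in INS-SMA and 0.655% to 0.671% in INS-MOCK. Those totals include the transgene, with 941093 to 1141322 counts in INS-SMA and 103 to 167 in INS-MOCK, so part of the lower share in INS-SMA is due to it.

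The inducible and the standard genes of the proteasome moved in opposite directions in INS-SMA cells. All 5 inducible genes rose, by 1.80-fold to 5.77-fold, whereas 26 of 31 standard core and cap subunits fell and 1 rose. Psmb5, the constitutive counterpart of Psmb8, showed the largest fall of any tested member, to 42.9% of its level in INS-MOCK. The test was edgeR's quasi-likelihood test over 13363 genes, and a gene was called at a Benjamini-Hochberg adjusted p below 0.05. Of the 49 members 47 had enough counts to be tested, and 9 of these were higher and 30 lower in INS-SMA. That is 19.1% and 63.8% of them, beside 28.1% and 27.0% of all tested genes. The median log2 fold change was -0.43 over the tested members and 0.03 over all tested genes. In 40 of the 47 members (85.1%) the libraries of the groups did not overlap, beside 65.3% of all tested genes. In bulk RNA, fewer cells that express a gene and less of its RNA per cell cannot be told apart.

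**Figure D1:**
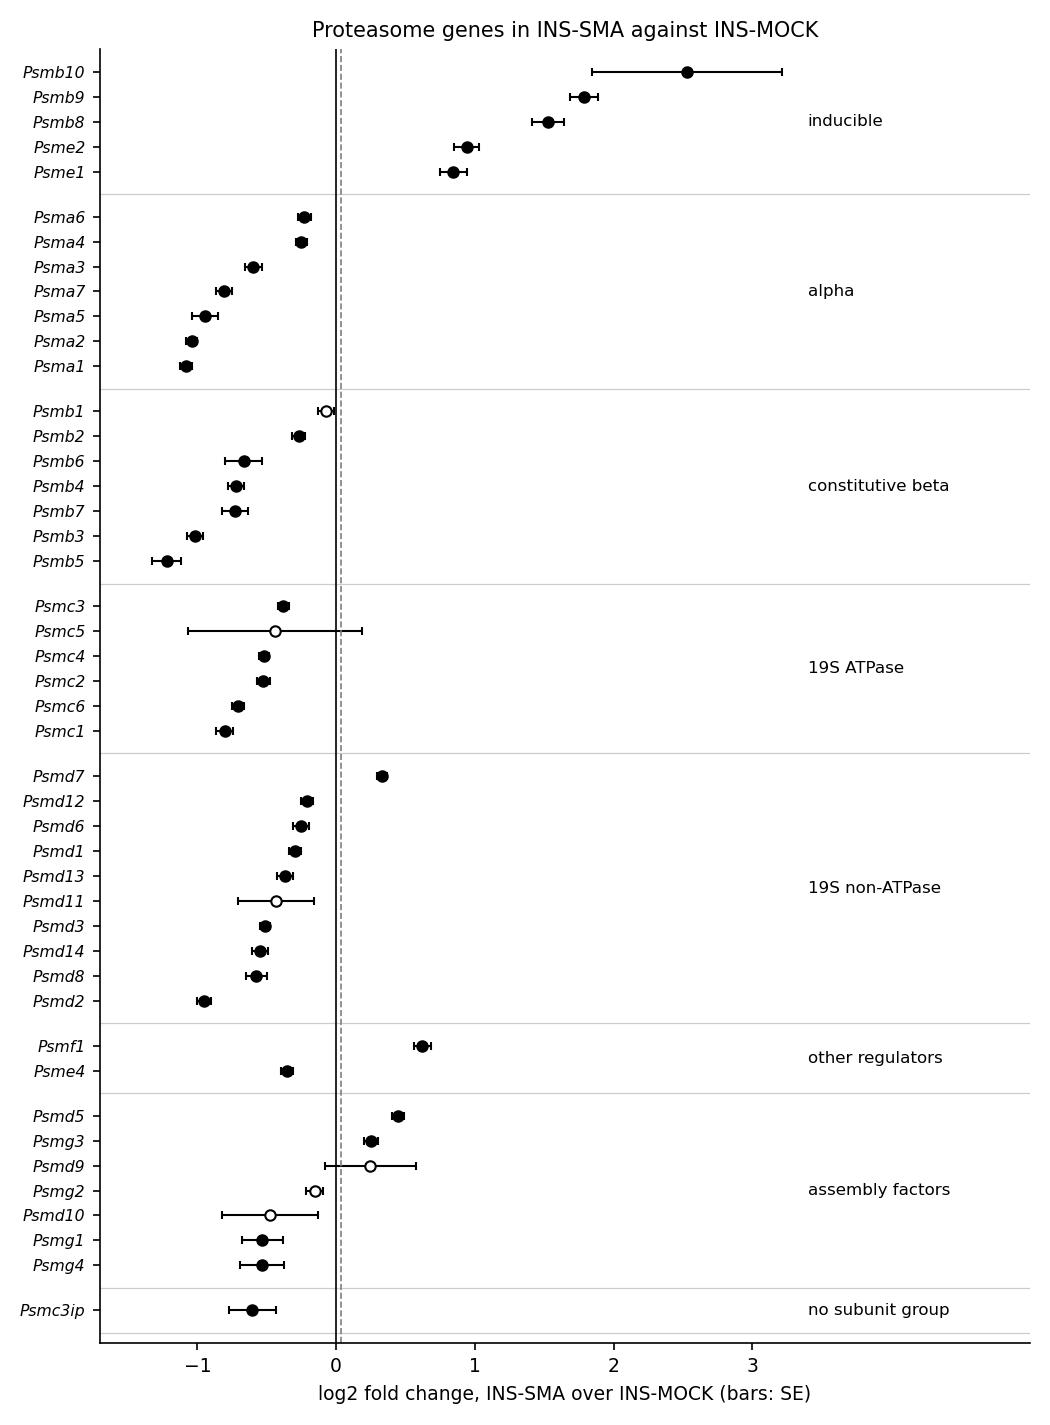
Log2 fold change of INS-SMA over INS-MOCK (horizontal axis) for 45 tested proteasome genes, grouped by role, with SE bars; filled points passed an edgeR adjusted p of 0.05, open points did not, and the dashed line is the median of all tested genes (0.03). The 5 inducible genes lie at 0.85 to 2.53, while the 7 alpha subunits lie at -1.08 to -0.23; Psmd4 and Psme3, which varied most between libraries, are left out.

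Psmb8 encodes the inducible chymotrypsin-like subunit. It was at 83.6, 86.0 and 95.2 CPM in the INS-SMA libraries, against 33.7, 26.2 and 32.01 CPM in the INS-MOCK libraries. Every INS-SMA library lay above every INS-MOCK library, and Psmb8 rose by 1.53 in log2 units (SE 0.11, edgeR adjusted p = 1.54e-04). Of the 2448 Psmb8 counts in INS-SMA replicate 3, 854 came from an assembled isoform with 0 counts in every other library. The call of Psmb8 held in all 16 other settings. Its constitutive counterpart Psmb5 was at 34.5, 43.7 and 39.1 CPM in INS-SMA and at 85.9, 89.7 and 97.7 CPM in INS-MOCK. The groups did not overlap in Psmb5 either, and Psmb5 fell by 1.22 in log2 units (SE 0.10, edgeR adjusted p = 2.57e-04). The span of Psmb5 overlaps the gene AC109100.1 on the same strand, so how reads were divided between both is uncertain.

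Psmb9 encodes the inducible subunit that replaces the caspase-like Psmb6. It was at 89.9, 87.5 and 99.7 CPM in INS-SMA, against 26.3, 24.3 and 29.7 CPM in INS-MOCK. This was a rise of 1.79 in log2 units (SE 0.10, edgeR adjusted p = 4.97e-05) with no overlap of the groups. Psmb6 was at 40.3, 49.8 and 51.4 CPM in INS-SMA and at 68.0, 70.6 and 86.1 CPM in INS-MOCK, and it fell by 0.67 (SE 0.14, adjusted p = 0.00829). LOC100360846, described in the table as Psmb6-like, held 1.74 to 3.93 CPM in INS-SMA and 4.01 to 5.00 CPM in INS-MOCK, so how reads were divided between both is uncertain.

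Psmb10 encodes the inducible trypsin-like subunit, and its constitutive counterpart is Psmb7. Psmb10 was at 110, 108.3 and 30.5 CPM in INS-SMA, against 18.2, 19.1 and 5.73 CPM in INS-MOCK. The third replicate was the low one in both groups, yet the groups did not overlap. The log2 fold change was 2.53 (SE 0.69, edgeR adjusted p = 0.0241). It was 2.16 to 2.93 when single libraries were left out, and the call held only without INS-SMA replicate 3. The adjusted p was 0.0581, 0.0551 and 0.0507 without INS-MOCK replicate 1, 2 or 3, and 0.0685 and 0.0672 without INS-SMA replicate 1 or 2. Psmb7 was at 144, 142 and 170 CPM in INS-SMA and at 234, 249.98 and 274 CPM in INS-MOCK, a fall of 0.73 (SE 0.09, adjusted p = 0.0013). The span of Psmb7 overlaps Nek6 on the opposite strand, and with the strand setting of the counting not given their reads cannot be told apart.

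**Figure D2:**
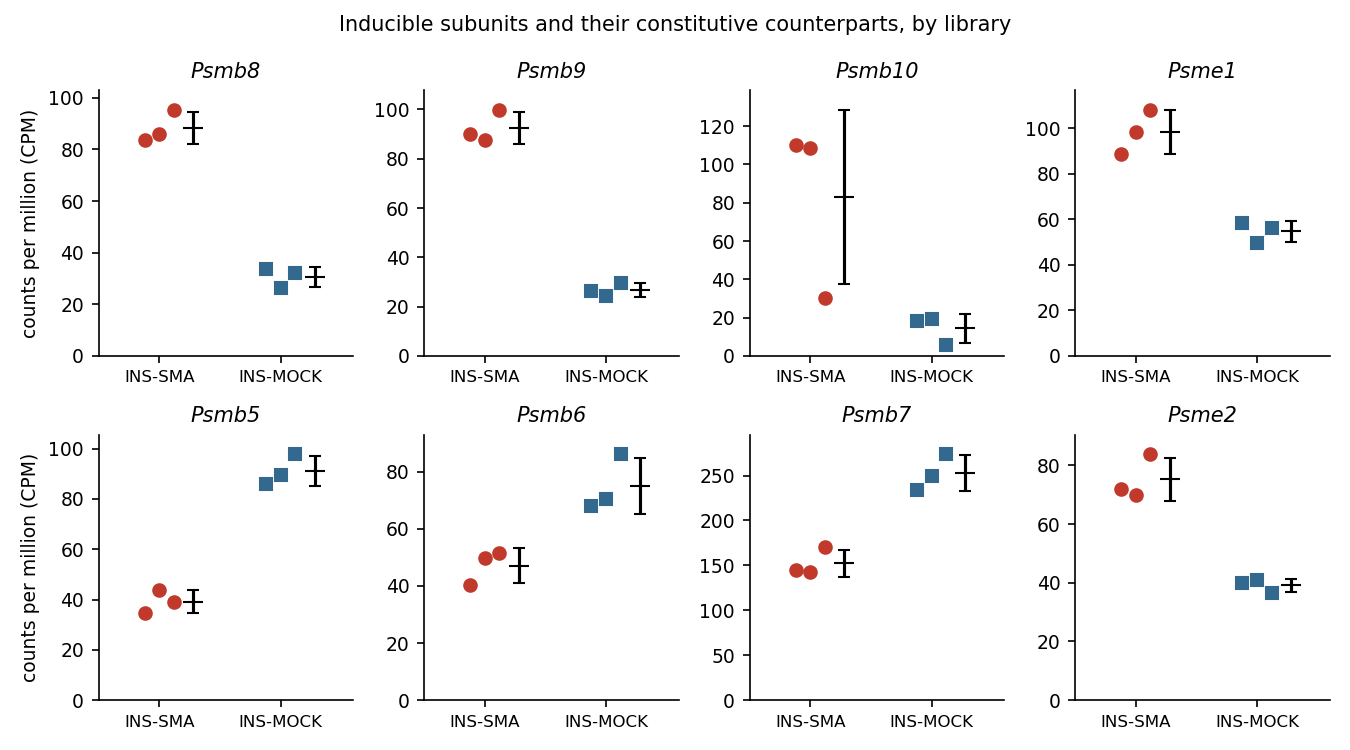
Level in CPM (vertical axes, each from 0) of the 5 inducible genes and of the 3 constitutive catalytic subunits in every library; circles are INS-SMA, squares INS-MOCK, and the bar beside each group is mean ± SD (n = 3). INS-SMA lies above INS-MOCK for the inducible genes (Psmb9 at 87.5 to 99.7 against 24.3 to 29.7) and below it for Psmb5, Psmb6 and Psmb7 (Psmb5 at 34.5 to 43.7 against 85.9 to 97.7).

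The balance within each catalytic pair was read as the ratio of their counts inside 1 library, which does not depend on the scaling between libraries. The ratio is not a ratio of molecules, since the genes differ in length. For Psmb8 over Psmb5 it was 2.43, 1.97 and 2.43 in INS-SMA, against 0.392, 0.292 and 0.328 in INS-MOCK. The ratio was thus 6.76-fold higher in INS-SMA on the geometric mean. For Psmb9 over Psmb6 it was 2.23, 1.76 and 1.94 in INS-SMA, against 0.387, 0.344 and 0.345 in INS-MOCK, 5.49-fold higher. For Psmb10 over Psmb7 it was 0.761, 0.761 and 0.179 in INS-SMA, against 0.0776, 0.0766 and 0.0209 in INS-MOCK, 9.41-fold higher. Its log2 difference of 3.23 was 2.61 when INS-MOCK replicate 3 was left out and 3.93 when INS-SMA replicate 3 was. The groups did not overlap in any of these 3 pairs. The exact two-sided permutation p was 0.1 for each, the smallest that 3 libraries against 3 can give, and 0.167 adjusted over 5 pairs.

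**Figure D3:**
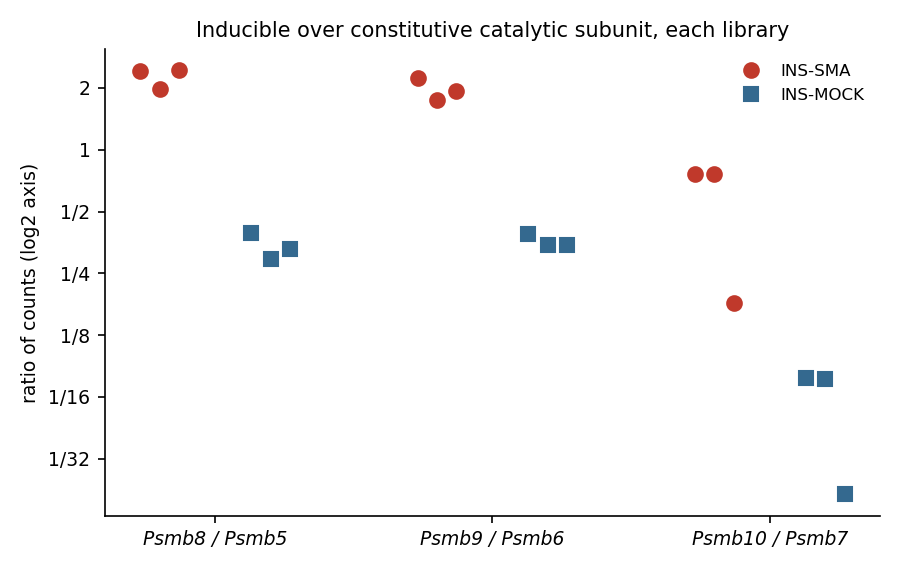
Ratio of counts of each inducible catalytic subunit to its constitutive counterpart (vertical axis, log2 scale) in every library; circles are INS-SMA and squares INS-MOCK. All INS-SMA points lie above the INS-MOCK points of the same pair, at 1.97 to 2.43 against 0.292 to 0.392 for Psmb8 over Psmb5, and replicate 3 is the low point of both groups for Psmb10 over Psmb7.

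The PA28 genes rose less than the catalytic subunits did by value, a difference that was not tested. Psme1 was at 88.6, 98.2 and 108.0 CPM in INS-SMA, against 58.4, 49.6 and 56.0 CPM in INS-MOCK, a rise of 0.85 (SE 0.10, edgeR adjusted p = 8.92e-04). Psme2 was at 72.1, 69.8 and 83.8 CPM in INS-SMA, against 40.0, 40.8 and 36.7 CPM in INS-MOCK, a rise of 0.94 (SE 0.09, adjusted p = 4.17e-04). Neither gene overlapped between groups. In Psme2, an assembled isoform of the gene held 0, 465 and 705 counts in INS-SMA and 0 in each INS-MOCK library, and the annotated transcript alone rose by 0.65 (adjusted p = 0.0258). Psme3 encodes the related nuclear activator PA28 gamma, and it gave no usable comparison. It was at 274, 2.52 and 0.972 CPM in INS-SMA and at 153, 1.26 and 3.03 CPM in INS-MOCK, high only in the first replicate of each group. Its log2 fold change of 0.81 did not pass (SE 2.48, adjusted p = 0.808) and was -4.91 without INS-SMA replicate 1. The span of Psme3 overlaps the gene AC123346.1 on the same strand. The exact p was 0.8 for the ratio of Psme1 to Psme3 and 0.7 for that of Psme2 to Psme3.

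The inducible genes lie in groups on the chromosomes. In the coordinates of the deposited table, Psmb9 (chromosome 20, 3973420 to 3978845, minus strand) and Psmb8 (3990613 to 3993769, plus strand) flank Tap1, a subunit of the transporter that carries peptides to MHC class I. Only 189 bases separate Psmb9 from Tap1, which point away from each other, and Tap2 follows Psmb8 after 1774 bases. All 4 genes of this stretch rose: Tap1 by 2.37 (SE 0.27, edgeR adjusted p = 7.69e-04) and Tap2 by 0.85 (SE 0.14, adjusted p = 0.0031). Psme1 (chromosome 15, 34256071 to 34258947, plus strand) and Psme2 (34265557 to 34269851, minus strand) face each other across 6609 bases. Emc9, on the strand opposite to Psme1 and overlapping it, rose by 1.22 (adjusted p = 0.0327), so reads of Psme1 and Emc9 cannot be told apart. Dcaf11 on the Psme1 side was at 0.05 and did not pass (SE 0.11, adjusted p = 0.738). On the Psme2 side Rnf31 had 0, 13 and 0 counts in INS-SMA and 459, 0 and 439 in INS-MOCK, and Irf9 had 21, 56 and 65 in INS-SMA and 507, 3 and 181 in INS-MOCK. Neither passed (edgeR adjusted p = 0.0914 and 0.246). Psmb10 lies apart from both groups on chromosome 19 (37909546 to 37912027, minus strand). Its neighbour Lcat was rare, with 16, 21 and 14 counts in INS-SMA and 0 in each INS-MOCK library, and was called higher (adjusted p = 0.00325), while Pskh1 and Ctrl did not pass (0.13 and 0.172).

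The promoters of the inducible genes are shown because these members rose together. They are RefSeq sequences of the build GRCr8, whose coordinates are not those of the deposited table, and run from 250 bases before to 50 bases after the annotated start. Capitals mark matches to the core of the interferon-stimulated response element, which is GAAA, any 2 bases and GAAA again, or to the gamma-activated site, TTCNNNGAA, on either strand.
Psmb10 promoter (GRCr8, chr19:50743243-50743542, minus strand): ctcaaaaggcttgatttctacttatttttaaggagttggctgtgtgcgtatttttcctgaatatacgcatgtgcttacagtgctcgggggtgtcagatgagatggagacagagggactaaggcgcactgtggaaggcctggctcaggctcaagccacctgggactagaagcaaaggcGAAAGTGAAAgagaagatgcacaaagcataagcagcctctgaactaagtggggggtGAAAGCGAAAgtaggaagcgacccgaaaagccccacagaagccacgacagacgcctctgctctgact
Psmb8 promoter (GRCr8, chr20:4656982-4657281, minus strand): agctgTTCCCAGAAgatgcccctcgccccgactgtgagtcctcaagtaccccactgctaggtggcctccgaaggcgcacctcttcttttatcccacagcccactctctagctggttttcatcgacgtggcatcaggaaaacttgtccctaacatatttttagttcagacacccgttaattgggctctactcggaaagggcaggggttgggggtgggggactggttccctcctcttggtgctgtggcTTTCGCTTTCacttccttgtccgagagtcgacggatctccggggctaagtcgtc
Psme2 promoter (GRCr8, chr15:33052702-33053001, minus strand): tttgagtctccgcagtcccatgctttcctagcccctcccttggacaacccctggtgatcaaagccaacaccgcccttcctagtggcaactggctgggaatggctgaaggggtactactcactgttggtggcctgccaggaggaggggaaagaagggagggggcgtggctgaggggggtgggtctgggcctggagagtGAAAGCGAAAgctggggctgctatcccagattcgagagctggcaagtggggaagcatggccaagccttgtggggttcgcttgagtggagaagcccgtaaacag
Psmb9 promoter (GRCr8, chr20:4668750-4669049, plus strand): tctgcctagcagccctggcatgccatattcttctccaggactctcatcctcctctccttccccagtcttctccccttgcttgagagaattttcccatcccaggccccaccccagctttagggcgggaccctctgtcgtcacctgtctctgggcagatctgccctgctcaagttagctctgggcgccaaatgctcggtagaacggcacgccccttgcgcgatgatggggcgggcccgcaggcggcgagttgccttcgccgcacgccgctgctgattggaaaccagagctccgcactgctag
Psme1 promoter (GRCr8, chr15:33038721-33039020, plus strand): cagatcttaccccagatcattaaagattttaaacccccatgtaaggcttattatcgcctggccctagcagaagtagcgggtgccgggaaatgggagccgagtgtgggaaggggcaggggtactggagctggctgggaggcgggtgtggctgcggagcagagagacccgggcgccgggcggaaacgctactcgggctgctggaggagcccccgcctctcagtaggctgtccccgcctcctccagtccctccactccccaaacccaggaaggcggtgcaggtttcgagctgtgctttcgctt
The Psmb10 promoter held the response element core in 2 places, GAAAGTGAAA beginning 73 bases and GAAAGCGAAA beginning 17 bases before the start. Psme2 held GAAAGCGAAA 53 bases before its start, and Psmb8 held it on the opposite strand as TTTCGCTTTC, 4 bases before its start. Psmb8 also held a gamma-activated site core, TTCCCAGAA, 245 bases before the start. No match was found in these windows of Psmb9 and Psme1. The Psme1 window ends in TTTCGCTT, the beginning of the response element core on the opposite strand. The bases that follow were not searched, so a match across this end would be missed.

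Promoters of this length were available for 44 of the 49 members. The response element core occurred in 3 of 5 inducible genes and in 3 of 27 standard subunits, namely Psma4, Psmb3 and Psmd7, beside 3.92% of 33469 rat promoters. Of these 3 standard subunits, Psmd7 rose, while Psma4 and Psmb3 fell. The only other member with this core was the assembly factor Psmg4, with GAAAGTGAAA shortly after its start, and Psmg4 was called lower. The gamma-activated site core occurred in 1 of 5 inducible genes and 3 of 27 standard subunits, beside 8.87% of all promoters. The core of the antioxidant response element, TGACNNNGC, which transcription factors of the NFE2L family are known to bind, occurred in 0 of 5 inducible genes and 6 of 27 standard subunits, beside 12.1% of all promoters. Psmb5 was among the 6, with TGACGTCGC 60 bases before its start, and so was Psmb6, with TGACGGAGC 24 bases before its start. No match overlapped a match to another of the 3 motifs in these promoters.

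All 7 alpha subunits of the core fell, beside 27.0% of all tested genes, with log2 fold changes of -1.08 to -0.23 and a median of -0.81. Psma1 was at 106, 112 and 109 CPM in INS-SMA, against 241, 228 and 225 CPM in INS-MOCK (log2 fold change -1.08, SE 0.04, edgeR adjusted p = 1.63e-05). Psma2 (-1.04), Psma5 (-0.95) and Psma7 (-0.81) fell by nearly as much by value, whereas Psma3 was at -0.60, Psma4 at -0.25 and Psma6 at -0.23. The groups did not overlap for any of the 7, beside 65.3% of all tested genes without overlap. The falls of Psma4 and Psma6 were the smallest and were lost when each gene was read from its most abundant row (adjusted p = 0.0553 and 0.0613). LOC100361067, described in the table as Psma3-like, held 2.18 to 2.28 CPM in INS-SMA and 2.38 to 3.26 CPM in INS-MOCK.

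Of the 7 constitutive beta subunits, 6 fell (85.7%, beside 27.0% of all tested genes). Beside the 3 catalytic ones these were the structural subunits Psmb3 (log2 fold change -1.02, SE 0.06, edgeR adjusted p = 4.83e-05), Psmb4 (-0.72, SE 0.06, adjusted p = 2.02e-04) and Psmb2 (-0.27, SE 0.05, adjusted p = 0.00424). Psmb3 was at 69.4, 70.4 and 63.0 CPM in INS-SMA, against 135, 135 and 140 CPM in INS-MOCK. Psmb1 did not pass. It was at 170, 167 and 189 CPM in INS-SMA and at 179, 185 and 188 CPM in INS-MOCK, so the groups overlapped. The change was -0.07 in log2 units (SE 0.06, adjusted p = 0.327), and it was 0.019 without normalisation factors. Without INS-SMA replicate 3 it was -0.13 at an adjusted p of 0.0418.

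In the 19S cap, 5 of 6 ATPase subunits fell (83.3%, beside 27.0% of all tested genes). These proteins form the ring that unfolds substrates. Psmc1 fell most, with 86.6, 97.4 and 94.0 CPM in INS-SMA, against 157, 170 and 158 CPM in INS-MOCK (log2 fold change -0.80, SE 0.06, edgeR adjusted p = 1.55e-04). Psmc6 (-0.71), Psmc2 (-0.52), Psmc4 (-0.52) and Psmc3 (-0.38) fell as well, without overlap of the groups. Read from the most abundant row alone, Psmc3 (-0.40, adjusted p = 0.25) and Psmc6 (-0.25, adjusted p = 0.35) lost their calls. Psmc5 varied between libraries, with 38.6, 60.4 and 72.4 CPM in INS-SMA and 31.3, 151 and 50.1 CPM in INS-MOCK. It did not pass (log2 fold change -0.44, SE 0.63, adjusted p = 0.59), and its sign turned without INS-MOCK replicate 2 (0.48).

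Of the 11 non-ATPase cap subunits, 8 fell (72.7%, beside 27.0% of all tested genes) and 1 rose (9.1%, beside 28.1%). Psmd2, a scaffold of the cap base, was at 333, 326 and 355 CPM in INS-SMA, against 629, 658 and 676 CPM in INS-MOCK. This was the largest fall of these 11 by value, -0.95 in log2 units (SE 0.05, edgeR adjusted p = 3.62e-05). The other 7 that fell had log2 fold changes of -0.58 (Psmd8) to -0.21 (Psmd12), among them Psmd14 (-0.55), the deubiquitinase of the cap, Psmd3 (-0.51) and Psmd1 (-0.30), the other large scaffold. Psmd7 encodes the partner that pairs with Psmd14 in the lid, and it rose. It was at 137, 136 and 135 CPM in INS-SMA, against 108.0, 112 and 105 CPM in INS-MOCK (log2 fold change 0.33, SE 0.04, adjusted p = 7.38e-04). Psmd7 and Psmd14 thus moved in opposite directions, and the groups overlapped in neither. The span of Psmd1 overlaps Htr2b on the opposite strand. The calls of Psmd6 (adjusted p = 0.0128) and Psmd12 (0.00829) were lost in the most abundant row (0.0678 and 0.0567), and that of Psmd6 also without normalisation factors (0.0532).

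Psmd4 and Psmd11 could not be compared as genes. Psmd4, a ubiquitin receptor, held 782, 0 and 0 counts in INS-SMA and 18, 45 and 0 in INS-MOCK. Its change of 4.08 in log2 units (SE 2.93, edgeR adjusted p = 0.293) rested on INS-SMA replicate 1 and was -7.44 without it. Psmd11 did not pass as a gene (-0.43, SE 0.27, adjusted p = 0.238), but its 2 annotated transcripts moved apart. One held 194, 180 and 206 counts in INS-SMA, against 638, 528 and 1009 in INS-MOCK, and as the most abundant row it fell by 1.68 (adjusted p = 0.00759). The other held 140, 430 and 334 counts in INS-SMA and 0 in each INS-MOCK library. Psmd11 encodes a lid subunit known to promote assembly of the complete proteasome.

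**Figure D4:**
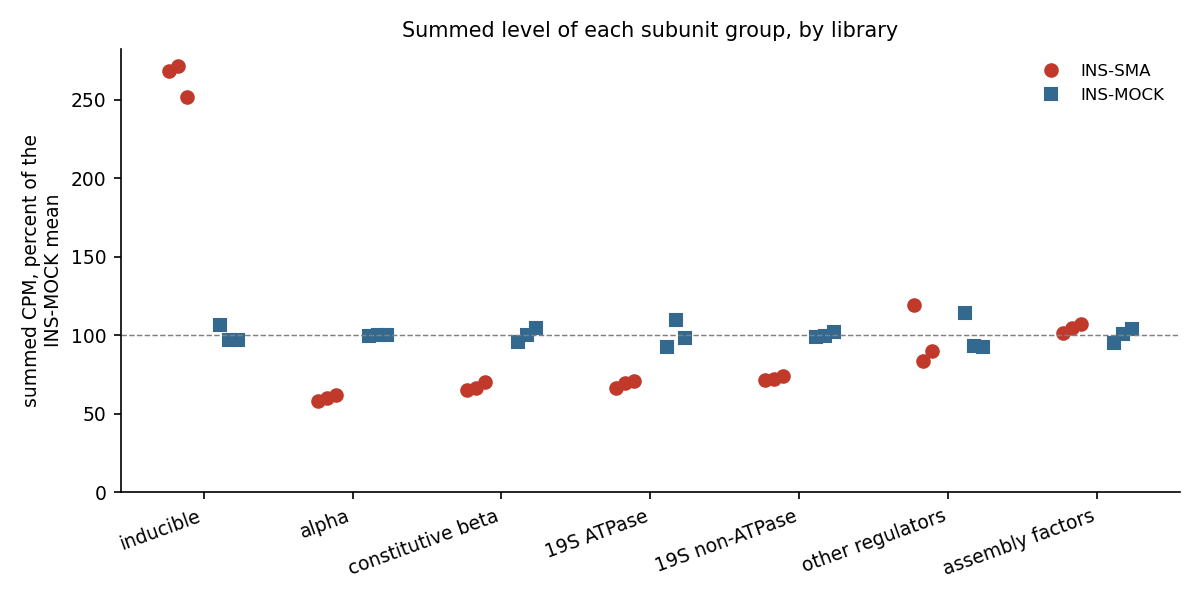
Summed CPM of the genes of each role in every library, as percent of the INS-MOCK mean of that role (vertical axis); circles are INS-SMA and squares INS-MOCK. The inducible genes reached 252% to 272% in INS-SMA, the alpha subunits 58.0% to 62.0% and the assembly factors 101% to 107%, while the spread of the other regulators comes with Psme3, which was high in the first replicate of each group.

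Summed over a role, the alpha subunits in INS-SMA stood at 58.0% to 62.0% of the INS-MOCK mean, the constitutive beta subunits at 64.9% to 69.9%, the ATPases at 66.3% to 70.7% and the non-ATPases at 71.5% to 74.2%. The INS-MOCK libraries themselves lay at 92.3% to 109% in these 4 roles. The inducible genes stood at 252% to 272% in INS-SMA and at 96.7% to 107% in INS-MOCK. Assembly factors stood at 101% to 107% in INS-SMA and at 95.3% to 104% in INS-MOCK, where the groups overlapped.

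Regulators outside the cap moved in both directions. Psmf1 encodes PI31, first described as an inhibitor of the isolated core. It was at 175, 171 and 195 CPM in INS-SMA, against 118, 113 and 120 CPM in INS-MOCK, with no overlap (log2 fold change 0.62, SE 0.06, edgeR adjusted p = 4.30e-04). Psme4 encodes the nuclear activator PA200. It was at 409, 425 and 452 CPM in INS-SMA, against 551, 554 and 542 CPM in INS-MOCK (log2 fold change -0.36, SE 0.04, adjusted p = 0.0011). Its call was lost in its most abundant row (-0.24, adjusted p = 0.28).

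Of 7 assembly factors 2 were higher and 2 lower, 28.6% each, close to the 28.1% and 27.0% of all tested genes. Psmd5, a chaperone of the cap base that is absent from the finished proteasome, rose by 0.45 (SE 0.04, edgeR adjusted p = 3.50e-04). It was at 139, 146 and 145 CPM in INS-SMA, against 109, 105 and 102 CPM in INS-MOCK. Psmg3 and Psmg4 work as a pair in building the alpha ring, yet their values differed in sign: Psmg3 rose by 0.25 (SE 0.05, adjusted p = 0.00931), and Psmg4 was at 10.9, 10.2 and 11.0 CPM in INS-SMA, against 12.7, 17.7 and 16.1 CPM in INS-MOCK. Psmg4 fell by 0.53 (SE 0.16, adjusted p = 0.0319), but its adjusted p was 0.0696 to 0.0924 when any library but INS-MOCK replicate 1 was left out. Psmg1 fell by 0.53 (SE 0.15, adjusted p = 0.0263), with an adjusted p of 0.0564 and 0.0616 without INS-MOCK replicate 2 or 3.

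The other 3 assembly factors did not pass. Psmg2, the partner of Psmg1, was at 35.4, 33.6 and 34.0 CPM in INS-SMA and at 38.3, 37.7 and 38.7 CPM in INS-MOCK (-0.16, SE 0.06, edgeR adjusted p = 0.0708), although the groups did not overlap. The cap chaperone Psmd9 was at 24.3, 11.0 and 23.2 CPM in INS-SMA and at 14.2, 16.2 and 18.9 CPM in INS-MOCK (0.25, SE 0.33, adjusted p = 0.561). Psmd10, another cap chaperone, was at 2.64, 4.04 and 1.71 CPM in INS-SMA and at 3.63, 4.03 and 4.02 CPM in INS-MOCK (-0.48, SE 0.35, adjusted p = 0.296). The groups overlapped in both. Psmd9 passed without INS-SMA replicate 2 (0.53, adjusted p = 0.0479).

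The remaining members were rare. Psma8, a core subunit of the testis, had 2, 0 and 4 counts in INS-SMA and 0 in each INS-MOCK library. Psmb11, a catalytic subunit of the thymic cortex, had 2, 3 and 0 counts in INS-SMA and 3, 5 and 10 in INS-MOCK. Neither had enough counts to be tested. Psmc3ip was at 8.95, 10.5 and 8.40 CPM in INS-SMA, against 11.7, 15.4 and 15.2 CPM in INS-MOCK, and it fell by 0.60 (SE 0.17, edgeR adjusted p = 0.0266). Its adjusted p was 0.0755 to 0.0815 without INS-MOCK replicate 2 or 3 or INS-SMA replicate 1 or 3.

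Other genes assemble, regulate or assist the proteasome without being members. Of 15 tested partners 4 rose (26.7%, beside 28.1% of all tested genes) and 7 fell (46.7%, beside 27.0%), with a median log2 fold change of -0.25. Pomp, the maturation factor needed to build the core, was at 30.1, 29.2 and 32.1 CPM in INS-SMA, against 79.2, 77.1 and 88.3 CPM in INS-MOCK, a fall of 1.42 (SE 0.08, edgeR adjusted p = 4.52e-05). LOC100911238, described as Pomp-like, fell by 1.38 (adjusted p = 4.96e-05), and the division of reads between both is uncertain. Zfand5, which stimulates the proteasome, fell by 0.92, and Sem1, a small cap subunit, fell by 0.98. Ngly1, an enzyme known to process the transcription factor NFE2L1, rose by 0.83 (SE 0.05, adjusted p = 7.99e-05).

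Nfe2l1 itself is known to drive transcription of standard proteasome genes when proteasome activity is short. It was at 33.1, 26.2 and 7.23 CPM in INS-SMA, against 2.11, 5.11 and 2.95 CPM in INS-MOCK, and rose by 2.71 (SE 0.66, edgeR adjusted p = 0.0165). Ddi2, the protease that activates it, fell by 0.39 (adjusted p = 0.00426). Nfe2l2, of the same family, rose by 1.18 (SE 0.38, edgeR adjusted p = 0.0439). It was at 116, 149 and 132 CPM in INS-SMA, against 95.3, 39.9 and 40.7 CPM in INS-MOCK. RGD1306148, which the table describes as the proteasome adaptor Ecm29, was at 421, 509 and 492 CPM in INS-SMA, against 138, 92.6 and 60.0 CPM in INS-MOCK, a rise of 2.29 (SE 0.32, adjusted p = 0.00172). The partner list held this gene under another symbol, Ecpas, so it is missing from the 15 tested partners counted above. Akirin2, a nuclear import factor for proteasomes, rose by 1.15 (adjusted p = 0.0037). The ubiquitin receptor Adrm1 was at 0.08 and did not pass (SE 0.08, adjusted p = 0.415).

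Of 19 tested genes of ubiquitin supply and substrate shuttling, 2 rose (10.5%, beside 28.1% of all tested genes) and 8 fell (42.1%, beside 27.0%), with a median log2 fold change of -0.13. Uba1, the main enzyme that activates ubiquitin, was at 698 ± 24.0 CPM in INS-SMA and 1052 ± 30.9 CPM in INS-MOCK, a fall of 0.59 (edgeR adjusted p = 1.03e-04). Vcp, the segregase that extracts substrates, fell by 0.46.

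Of 17 tested genes around antigen presentation, 8 rose (47.1%, beside 28.1% of all tested genes) and 4 fell (23.5%, beside 27.0%), with a median log2 fold change of 0.42. B2m, the light chain of MHC class I, was at 1206 ± 71.3 CPM in INS-SMA and 233 ± 20.2 CPM in INS-MOCK, a rise of 2.37 (edgeR adjusted p = 1.23e-05). The transcription factor Irf1, known to act on promoters of inducible proteasome genes, rose by 3.50, and the loading factor Tapbp rose by 1.06. The 4 that fell were the chaperones Pdia3 (-1.88), Canx (-1.48) and Calr (-2.38), which serve the endoplasmic reticulum in general, and the peptidase Lap3 (-0.95). The class I heavy chain gene RT1-A1 was at 537 ± 82.2 CPM in INS-SMA and 423 ± 91.1 CPM in INS-MOCK and did not pass (0.34, SE 0.19, adjusted p = 0.186).

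Immune cells carry the inducible subunits, so their markers were read beside them. Of 12 markers 8 were among the named genes and 5 were tested, of which Cd74 and Ptprc rose and Coro1a fell. Cd74 was at 84.2, 80.0 and 81.8 CPM in INS-SMA, against 0, 0.134 and 0.385 CPM in INS-MOCK. Ptprc was at 1.13 to 1.86 CPM in INS-SMA and had 0 counts in INS-MOCK. The 8 markers summed to 83.1 to 88.6 CPM in INS-SMA and 3.96 to 6.90 CPM in INS-MOCK. Without Cd74, which cells other than immune cells can also express under interferon, the other 7 summed to 3.12 to 4.39 CPM in INS-SMA and 3.96 to 6.77 CPM in INS-MOCK. The sum in INS-MOCK was largely Coro1a, at 3.10, 4.21 and 2.78 CPM there, against 0.781, 0.0918 and 0.622 CPM in INS-SMA. It therefore does not show how the remaining markers moved. Among those tested, Ptprc rose, as given above. Csf1r (log2 fold change 0.24, edgeR adjusted p = 0.672) and Cd68 (-0.82, adjusted p = 0.44) did not pass. Itgb2, Laptm5 and Fcer1g had too few counts to be tested. Laptm5 was at 0 in 5 of 6 libraries, and the markers outside the named genes were not analysed here. The part of immune cells in the rise of the inducible genes was not tested.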

How the data were processed

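RNA was sequenced in 3 INS-SMA and 3 INS-MOCK libraries of INS-1 cells. The authors deposited raw counts per transcript row, whole numbers with 1 column per library. The tools HISAT2, HISAT and DESeq2 and the builds hg19 and rn6 are named, without roles, in the submitters' processing notes. How reads were counted, and with which strand setting, is not given in the sources used here. Coordinates of genes are those of the table. Of 101905 rows 66301 carry no gene and entered neither the library sizes nor the tests.

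Counts were summed per gene, members drawing on 79 rows. Genes passing edgeR's filterByExpr (13363) were TMM-normalised and tested with edgeR 4.0.16 (glmQLFit, glmQLFTest, group as the only term) in R 4.3.3, with Benjamini-Hochberg adjustment over all of them. SE is the log2 fold change divided by the square root of F. On simulated counts the procedure missed part of the planted changes, so a gene that did not pass is not shown to be unchanged. Those counts were drawn from the means and dispersions of the fit itself. The few false calls made on them therefore do not give the rate of false calls in these libraries. Ratios within a library were compared with exact two-sided permutation tests. DESeq2 1.42.0 and 15 other settings were tried.

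The members and gene lists were chosen with earlier results of these data known. Values per library are given for the inducible genes, their counterparts, and the largest rise and fall of each role at 5 CPM or more, and for members that failed the test. Of each other list the 3 genes with the smallest adjusted p were chosen (Zfand5, Pomp, Ngly1; Uba1, Vcp; Pdia3, B2m, Canx), of which 1 is not reported here. All other genes were named after their values were seen. No library was a copy of another: within groups, pairs of libraries had a chi-square of 42.7 to 55.6 for each degree of freedom.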

Additional observations from a re-analysis of the deposited data

How the results depend on the processing

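The counts of called members were taken again under 16 other settings. Members higher in INS-SMA numbered 8 or 9 (9 as reported), members lower numbered 22 to 30 (30 as reported), and inducible genes higher numbered 4 or 5 (5 as reported). The 22 came from reading each gene from its most abundant row. Leaving out single libraries gave 8 to 9, 27 to 30, and 4 to 5. The 4 came with every omission except that of INS-SMA replicate 3, since Psmb10 lost its call in the others. The ratios were recomputed only from the most abundant row and without single libraries. Their log2 differences kept their direction for Psmb8 over Psmb5 (2.52 to 2.87), Psmb9 over Psmb6 (2.37 to 2.54) and Psmb10 over Psmb7 (2.61 to 3.93).

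Signs turned for 4 members that had not passed: Psmb1 without normalisation factors (0.019), Psmc5 without INS-MOCK replicate 2 (0.48), and Psmd4 and Psme3 without INS-SMA replicate 1. Leaving out single libraries gave -0.82 to 0.48 for Psmc5, -7.44 to 5.39 for Psmd4 and -4.91 to 5.46 for Psme3. They also turned for the ratio of Psme1 to Psme3 (0.78), at -1.27 when INS-MOCK replicate 1 was left out and at -0.12 and -0.88 when INS-SMA replicate 2 or 3 was; such values ran from -1.27 to 3.33. The ratio of Psme2 to Psme3 (0.87) turned to -1.21 when INS-MOCK replicate 1 and to -0.80 when INS-SMA replicate 3 was left out; such values ran from -1.21 to 3.38. The cause was not tested.

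Over single members and settings, 712 values kept their direction and their side of the threshold, 30 lost the call, 3 gained it and 4 turned. With the replicate number as a block, 9 members were higher and 28 lower, and Psmc3ip (adjusted p = 0.0555) and Psmg4 (0.0866) lost their calls. Same-numbered libraries of the groups did not deviate together over all genes (r = -0.03, -0.01 and -0.03 over 13363 genes), so the numbers were not taken as pairs. Such an r does not speak for single genes. Psme3 was high only in replicate 1 of both groups, and Psmb10 was lowest in replicate 3 of both. With the block, Psmb10 rose by 2.50 (edgeR adjusted p = 8.5e-04). Reads in rows without a gene limit every level given, and the alternative of adding those rows to genes by position was not run, since they carry no coordinates.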
